A study of Homo sapiens with 4 samples.

Results

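Replication-dependent histone genes, which encode the linker histone H1 and the core histones H2A, H2B, H3 and H4, were examined for loss of H3K4me3 after treatment with the Tat-SID peptide. The set was chosen by symbol as the protein-coding genes of the GENCODE annotation on GRCh37 named H1-1 to H1-6, or named H2AC, H2BC, H3C or H4C with a number. This rule gave 64 of 20176 protein-coding genes, of which 51 lie on chromosome 6, 12 on chromosome 1 and 1, H4C16, on chromosome 12. By family there were 6 H1, 16 H2A, 16 H2B, 13 H3 and 13 H4 genes.

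The data are native ChIP-Seq of H3K4me3, a histone mark found around the start of active genes, in MDA-MB-231, an established cell line of human triple-negative breast cancer. Tat-SID is a decoy peptide that joins the SIN3 interaction domain of MAD to a nuclear localization signal of HIV-1 Tat, and it was made to block the PAH2 domain of the SIN3 scaffold. Of 4 libraries, 1 was H3K4me3 ChIP of untreated cells, 1 of cells given 1 μM Tat-SID, 1 of cells given 2.5 μM Tat-SID, and 1 was input DNA, and no scrambled peptide (Tat-Scr) was among them. Treatment lasted 3 days as the study describes it. The lists of regions with reduced H3K4me3 at 1 μM (141 regions) and 2.5 μM (2063 regions) and with increased H3K4me3 at 2.5 μM (3 regions) were made by the authors against the same untreated library, and they give positions alone. Library depth, how much signal a region lost and how far cultures vary are therefore unknown here, with 1 library per condition no difference between conditions was tested, and the cell line could not be checked against marker genes. Intervals given below are exact Clopper-Pearson 95% intervals that cover counting error over genes, and genes that share a region are not independent.

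Replication-dependent histone genes are transcribed mainly in S phase to supply the proteins that package newly made DNA. They are arranged in clusters, many H2A and H2B genes lie head to head around one shared promoter, and transcription takes place in nuclear bodies that hold the coactivator NPAT. Their messages usually end in a conserved stem-loop, bound by SLBP, in place of a poly(A) tail.

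Among the members, 10 promoters shared by an H2A and an H2B gene were found. Of these, 4 are shown here to let pairs with and without loss of H3K4me3 be compared. They are a pair with and a pair without a reduced region from each chromosome. Each sequence is the DNA between both start sites, read 5′ to 3′ on the plus strand of GRCh37. Capitals mark the letters CCAAT (bound by NF-Y), TATAAA (the TATA box) and ATTTGCAT (the octamer that OCT1 recognises) on either strand, and marked matches may overlap. H2BC12/H2AC12 lies at chr6:27114635-27114884 and H2BC21/H2AC20 at chr1:149858233-149858467, and both had a reduced region at 2.5 μM. H2AC1/H2BC1 lies at chr6:25726791-25727004 and H2AC25/H2BC26 at chr1:228645575-228645803, and neither had one. H2BC12/H2AC12 is the extreme of the 10 pairs, with the longest sequence (250 bases) and the most copies of CCAAT (6). Reduced pairs had 3 to 6 copies and the others had 3, so the 4 do not stand for the full set.
H2BC12/H2AC12: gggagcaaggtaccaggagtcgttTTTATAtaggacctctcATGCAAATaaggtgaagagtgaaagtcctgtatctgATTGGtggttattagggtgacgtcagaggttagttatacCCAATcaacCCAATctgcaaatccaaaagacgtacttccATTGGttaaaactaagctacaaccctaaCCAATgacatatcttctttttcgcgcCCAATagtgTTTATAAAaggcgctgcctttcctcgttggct
H2BC21/H2AC20: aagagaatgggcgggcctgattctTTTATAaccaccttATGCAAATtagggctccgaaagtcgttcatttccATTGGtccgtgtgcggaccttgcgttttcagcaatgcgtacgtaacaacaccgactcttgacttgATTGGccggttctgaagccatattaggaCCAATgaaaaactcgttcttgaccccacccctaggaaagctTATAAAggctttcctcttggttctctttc
H2AC1/H2BC1: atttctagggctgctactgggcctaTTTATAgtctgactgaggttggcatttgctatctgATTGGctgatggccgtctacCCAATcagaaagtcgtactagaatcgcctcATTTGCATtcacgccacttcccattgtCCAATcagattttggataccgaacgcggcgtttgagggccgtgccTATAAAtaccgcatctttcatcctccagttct
H2AC25/H2BC26: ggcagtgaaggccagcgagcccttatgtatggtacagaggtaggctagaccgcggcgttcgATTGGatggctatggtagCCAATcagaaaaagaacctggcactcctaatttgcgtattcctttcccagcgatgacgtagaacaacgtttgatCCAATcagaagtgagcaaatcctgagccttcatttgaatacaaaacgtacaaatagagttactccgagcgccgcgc

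The question was which histone genes lay in the regions that lost H3K4me3 at each dose. A gene was counted as reduced when a region of the list lay within 3 kb of its transcription start site (TSS), taken as the 5′ end of the annotated gene. At 1 μM, 0 of 64 histone genes were reduced, for an upper bound of 5.60%, beside 100 of 20176 protein-coding genes (0.496%), so a count of 0 lay near the background. The nearest region of the 1 μM list was 402 to 3138 kb away from the histone TSS, with a median of 1475 kb. At 2.5 μM, 30 of 64 were reduced (46.9%, interval 34.3% to 59.8%), beside 1917 of 20176 protein-coding genes (9.5%; 9.38% without the histone genes). Chromosomes 1, 6 and 12 held none of the 3 increased regions. Histone genes thus appeared in the list of the higher dose alone, at a share several times that of all protein-coding genes. No test of the difference between doses was possible. The lists do not say which genes carried H3K4me3 in untreated cells, and a gene without the mark could not lose it. This share and the background shares below were not limited to marked genes, so preferential loss at histone genes was not tested.

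All 30 reduced histone genes had their TSS inside a region, so none was counted through the 3 kb margin. This was general in the list, since 1853 of the 1917 reduced protein-coding genes had their TSS inside a region too. The members nearest to being counted were the H4 genes H4C12, at 3413 bp from a region, and H4C9, at 3790 bp. The 34 other members had a median distance of 17.7 kb to the nearest reduced region, with a range of 3.41 to 1138 kb. Over all 64 members the median distance was 4.64 kb, beside 403 kb over 20098 protein-coding genes of the autosomes and chromosome X.

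Chromosomes 1 and 6 were compared next. Chromosome 6 held 25 reduced genes of 51 (49.0%, interval 34.8% to 63.4%), where 178 of 1048 protein-coding genes of that chromosome were reduced (17%). Chromosome 1 held 5 of 12 (41.7%, interval 15.2% to 72.3%), where 234 of 2092 protein-coding genes were reduced (11.2%). The intervals of both chromosomes overlapped over most of their width, and with 12 genes on chromosome 1 a difference between them was not detectable. H4C16, a lone H4 gene on chromosome 12, lay 402 kb from the nearest region. On chromosome 6, members without a region outside the stretch from H4C4 to H2BC10 were H1-1, H4C3, H1-6, H2AC16, H1-5, H3C11 and H4C13, at 11.3 to 23.7 kb from one, and H3C1, H4C1 and H4C11, at 7.47 to 8.87 kb, besides H4C9, H4C12, H2AC1 and H2BC1. Members on chromosome 1 had a median distance to a region of 5.81 kb and those on chromosome 6 of 3.41 kb.

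When members were split wherever neighbouring TSS were over 100 kb apart, 3 groups formed on chromosome 6 beside the H2AC1/H2BC1 pair, and 1 group on chromosome 1 beside the H2AC25/H2BC26 pair. The largest, from H1-1 to H4C8, spans 268 kb and had 11 reduced genes of 28 in 7 regions. From H2BC11 to H2AC12, over 14.3 kb, 4 of 5 genes were reduced in 2 regions, and the exception was H4C9 between the pairs. From H2BC13 to H2BC17, over 85.5 kb, 10 of 16 were reduced in 3 regions. On chromosome 1, the group from H2BC18 to H2AC21 spans 75.6 kb and had 5 of 10 in 3 regions. Reduced regions covered 14.3%, 45.8%, 20.5% and 18.3% of these spans in the order given, and every region within them had a histone TSS near it. The map of TSS and regions shows reduced genes in runs of at most 5, separated by runs of 1 to 12 other genes.

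**Figure D1:**
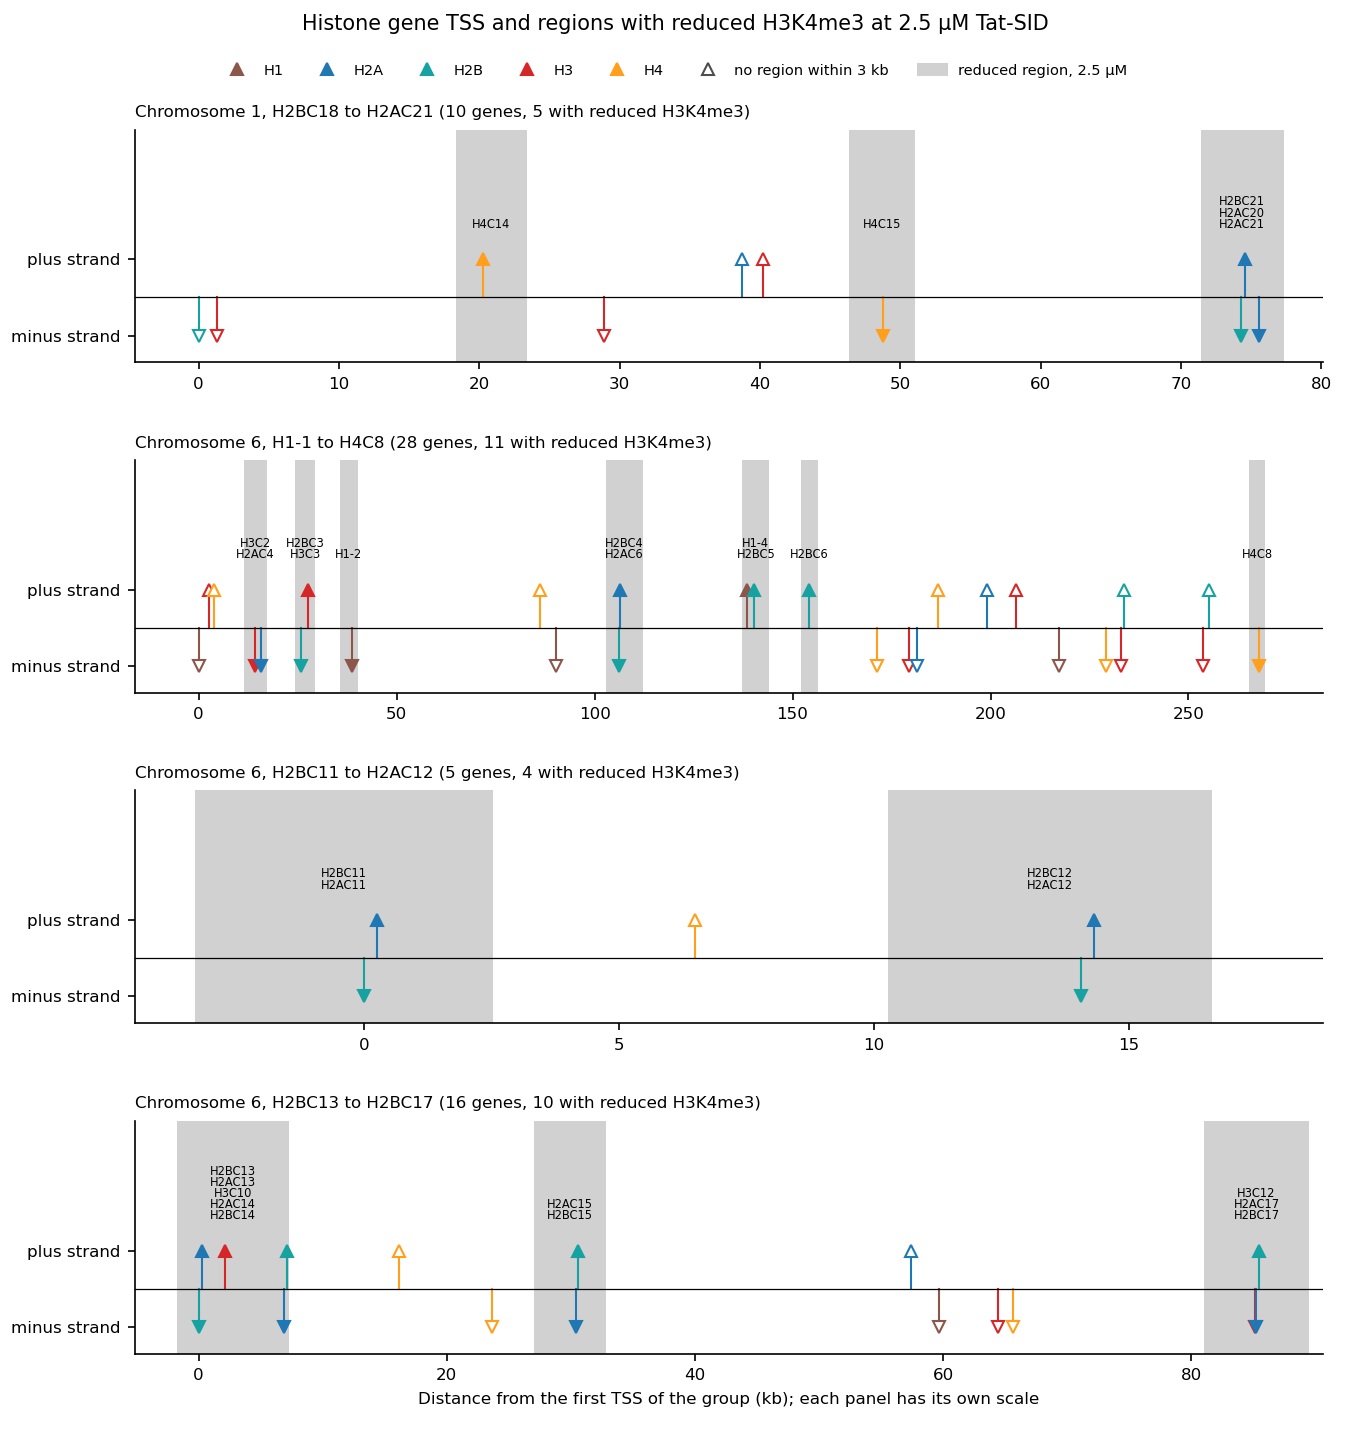
TSS of histone genes along the 4 groups with reduced regions, in kb from the first TSS of each group, with arrows pointing up for the plus strand and down for the minus strand. Filled arrows are genes with a reduced region at 2.5 μM and open arrows are genes without one, colours give the family, and grey bands are the reduced regions. The 15 bands lie at the 30 filled arrows, and a stretch of 12 open arrows in the second panel runs over 83.8 kb.

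Runs were read over members alone, without H2BC7, H2BC8 and H4C6, which were not analysed. The longest uninterrupted run without a reduced region held 12 members from H4C4 to H2BC10, with TSS from position 26189340 to 26273159 of chromosome 6. It contained 1 H1 gene (H1-3), 2 H2A genes (H2AC7 and H2AC8), 2 H2B genes (H2BC9 and H2BC10), 4 H3 genes (H3C4, H3C6, H3C7 and H3C8) and 3 H4 genes (H4C4, H4C5 and H4C7). The longest runs of reduced genes held 5 each, namely H3C2 to H1-2, H2BC4 to H2BC6, and H2BC13 to H2BC14. All 3 of these lie on chromosome 6. Between the histone genes of these groups lie 5 other protein-coding genes, of which 2 were reduced. Those were BOLA1, a mitochondrial protein gene beside H2AC21 whose TSS fell in the same region, and HIST1H4B, an H4 gene under its older symbol at 1.87 kb from the region of H3C2 and H2AC4. HFE, the hemochromatosis gene, lay 29.3 kb from a region.

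By family, the linker histones had 2 reduced genes of 6, H1-2 and H1-4. H1-1, H1-3, H1-5 and H1-6 had none within 3 kb, and H1-6 encodes the testis linker histone H1t. H2A genes were reduced in 10 of 16 cases (62.5%, interval 35.4% to 84.8%) and H2B genes in 11 of 16 (68.8%, interval 41.3% to 89.0%). H3 genes were reduced in 4 of 13 (30.8%, interval 9.09% to 61.4%) and H4 genes in 3 of 13 (23.1%, interval 5.04% to 53.8%). Set against each other, the dimer histones H2A and H2B together had 21 of 32 (65.6%, interval 46.8% to 81.4%) and the tetramer histones H3 and H4 together had 7 of 26 (26.9%, interval 11.6% to 47.8%). Their intervals overlapped slightly, and they were narrower than they should be because the 21 genes lay in 11 regions.

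The same order held on chromosome 6, where 8 of 12 H2A and 10 of 13 H2B genes were reduced, beside 4 of 10 H3 and 1 of 10 H4 genes. On chromosome 1 it did not, with 2 of 4 H2A, 1 of 3 H2B, 0 of 3 H3 and 2 of 2 H4 genes. The H4 genes there, H4C14 and H4C15, are near-identical copies, described below. Families also differed in whom they shared a region with. Each of the 4 regions with an H3 gene also held an H2A or H2B gene, and the H3 genes were H3C2, H3C3, H3C10 and H3C12. The 3 regions with an H4 gene of the set each held that gene as the single member, and H1-2 was likewise alone in its region.

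Length of the annotated gene was examined because several histone genes have long models, with spliced transcripts that run far beyond the short intronless histone message. Of the members over 1 kb, 12 of 18 were reduced (66.7%), beside 9.59% of all protein-coding genes over 1 kb. Of the members up to 1 kb, 18 of 46 were reduced (39.1%), beside 33 of 522 protein-coding genes of that length (6.32%). Those 33 include the 18 members, and without members the count was 15 of 476 (3.15%), while for genes over 1 kb it was 1872 of 19636 (9.53%). Within H4, 0 of 9 short models were reduced and 3 of 4 long ones, which were H4C8, H4C14 and H4C15. Within H3, 2 of 10 short models and 2 of 3 long ones were reduced. H2B showed 5 of 8 short and 6 of 8 long models, and H2A showed 9 of 13 short and 1 of 3 long models. Among short models alone, H1 had 2 of 6.

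**Figure D2:**
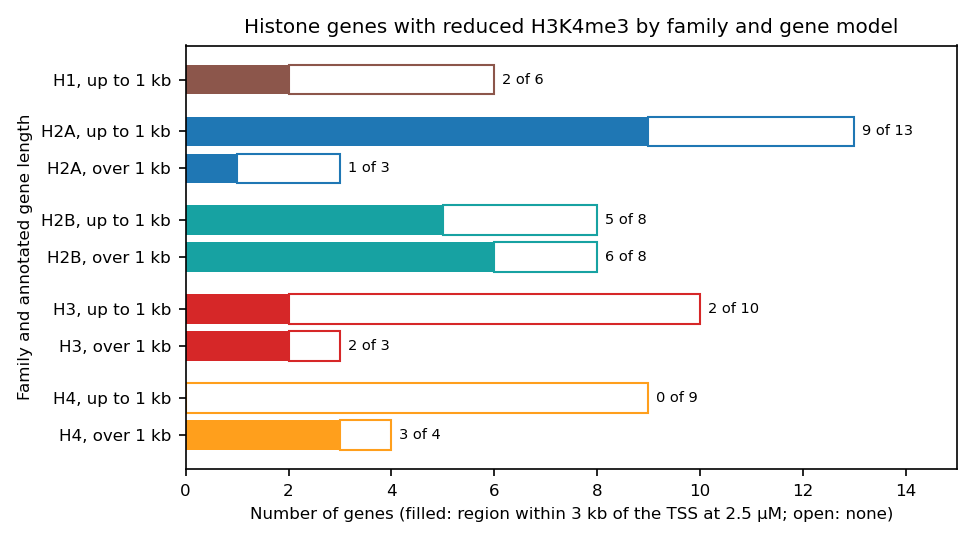
Number of histone genes per family and annotated gene length, with the filled part of each bar for genes counted as reduced at 2.5 μM and the open part for the others. Short H2A genes are filled for 9 of 13 and short H4 genes for 0 of 9. H1 has no gene over 1 kb.

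For H2BC6 the annotated start matters, since its model begins 11737 bp upstream of the start codon. The region at chr6:26170251-26174349, the shortest at a histone gene with 4099 bp, covers that far upstream start and not the coding sequence. It was the 1 member of 30 whose start codon lay outside its region. H3C12 has a start codon 2314 bp after its annotated start, and both lay inside its region.

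Which genes shared a region was then listed, because the 30 reduced genes lay in 15 regions, 12 on chromosome 6 and 3 on chromosome 1. A single member was found in 5 regions, 2 members in 7, 3 members in 2, and 5 members in 1. Thus 10 of 15 (66.7%) held at least 2 histone TSS, where 365 of the 1500 regions near any protein-coding TSS (24.3%) had at least 2 protein-coding genes. These shares were not compared at matched gene density. None of the 15 overlapped a region of the 1 μM list. That list held only 141 regions, beside 2063 in the list of the higher dose. How many of all 2063 overlapped the shorter list was not counted, so the lack of overlap was not compared with a background.

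The region with the most members, chr6:27773951-27782999 with 9049 bp, held 5, which were H2BC13, H2AC13, H3C10, H2AC14 and H2BC14, that is, 2 H2A and H2B pairs with an H3 gene between them. The longest, chr6:26120851-26130199 with 9349 bp, held the pair H2BC4 and H2AC6, and 98 regions of the list were longer. The region at chr6:27856751-27865199 held H3C12, H2AC17 and H2BC17 over 8449 bp. The other chromosome 6 regions, besides that of H2BC6, held H3C2 and H2AC4, H2BC3 and H3C3, H1-2, H1-4 and H2BC5, H4C8, H2BC11 and H2AC11, H2BC12 and H2AC12, and H2AC15 and H2BC15.

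On chromosome 1 the first region, chr1:149802301-149807299 with 4999 bp, held H4C14. The second, chr1:149830301-149834999 with 4699 bp, held H4C15. The third, chr1:149855351-149861249 with 5899 bp, held H2BC21, H2AC20 and H2AC21. Of the remaining members there, H3C14 at 5.48 kb, H3C15 at 6.13 kb and H2AC19 at 7.67 kb lay closest to a region. H3C13 lay 17.1 kb and H2BC18 18.4 kb away, and H2AC25 and H2BC26 lay 1138 kb away. All 3 chromosome 1 regions were thus in the group next to BOLA1, and the distal pair had none nearby.

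Regions at histone genes measured 4099 to 9349 bp (median 5849 bp), beside 199 to 27349 bp and a median of 4949 bp for all 2063 regions. Chromosome 1 regions had a median of 4999 bp and chromosome 6 regions of 5924 bp. In the plot of region length against the number of histone TSS, the regions with 1 member were all among the shorter ones, with lengths of 4099 to 4999 bp, and those with 3 or 5 members ran from 5899 to 9049 bp. With 15 regions this is a description of the list.

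**Figure D3:**
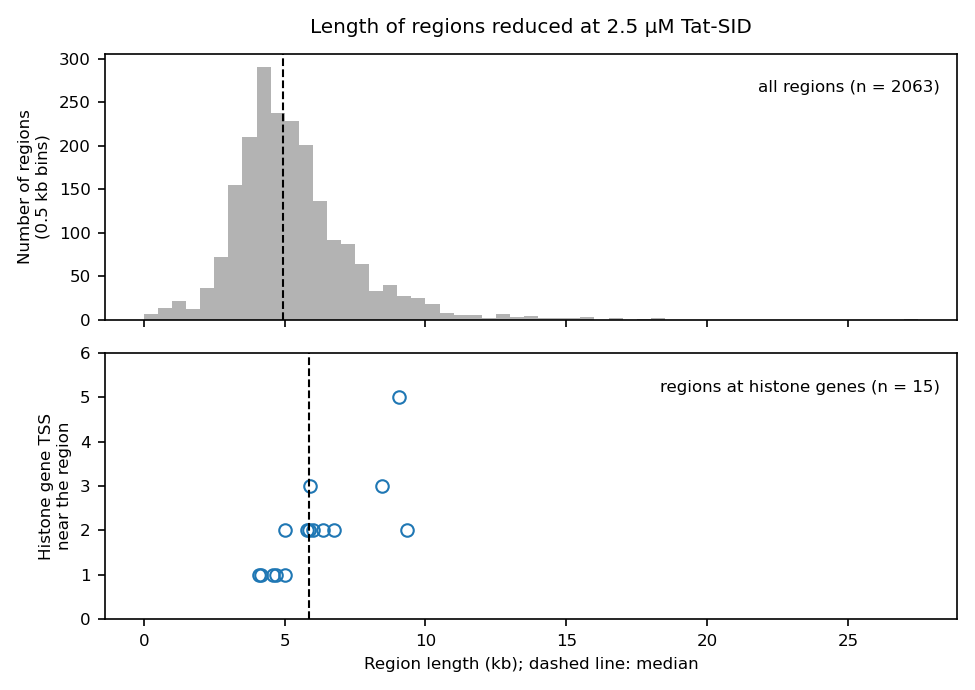
Length in kb of all 2063 regions reduced at 2.5 μM as a histogram (upper panel) and of the 15 regions at histone genes against the number of histone TSS within 3 kb of each (lower panel, 1 circle per region). Dashed lines are medians, at 4949 bp and 5849 bp.

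Regions reached 444 to 8849 bp before the TSS (median 3020 bp) and 199 to 8604 bp after it (median 3200 bp), so they spread to both sides of the start. The whole annotated gene lay inside the region for 20 of 30 reduced members, and for 17 of the 18 with short models. The exception was H2BC14, whose end lay outside. At these short genes the regions covered upstream, coding and downstream sequence together.

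**Figure D4:**
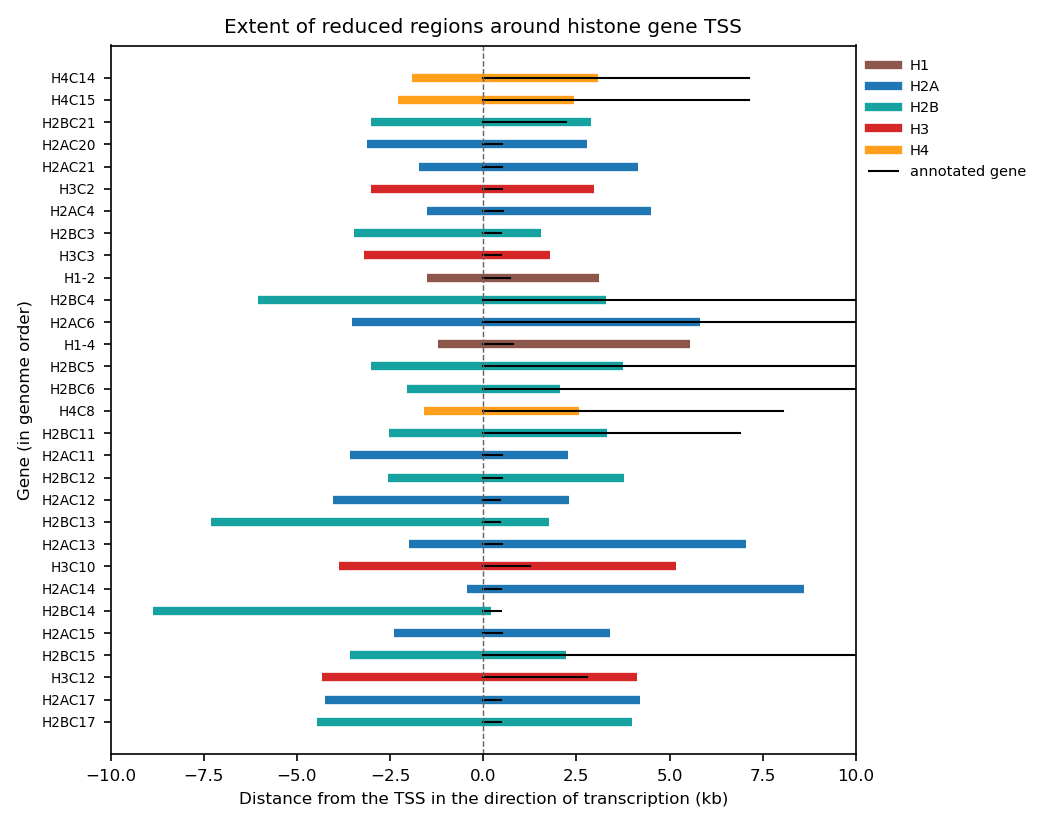
Extent of the reduced region around the TSS of each of the 30 reduced histone genes, in kb along the direction of transcription, in genome order, with the annotated gene as a thin black line that ends at the edge of the plot where the gene is longer. Bars reach both sides of the TSS in every gene, with the shortest upstream reach at H2AC14 (444 bp) and the shortest downstream reach at H2BC14 (199 bp).

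The head-to-head arrangement was then followed. With start sites within 1 kb on opposite strands, 10 H2A and H2B pairs were found among the members. Of these, 8 (80%) had both genes reduced, beside 179 of 872 other divergent protein-coding pairs (20.5%). H2AC18, H2BC7 and H2BC8 were not members, so any pair with them was not among the 10. Neither gene was reduced in H2AC25/H2BC26 and H2AC1/H2BC1. No pair had 1 gene reduced without the other, and no other divergent pair did either. Starts within 1 kb of each other and a window of 3 kb make this likely, though they do not force it. The 8 pairs were H2BC21/H2AC20, H2BC4/H2AC6, H2BC11/H2AC11, H2BC12/H2AC12, H2BC13/H2AC13, H2AC14/H2BC14, H2AC15/H2BC15 and H2AC17/H2BC17. H2AC1 and H2BC1, 235 kb from the nearest region, are known as the testis forms TH2A and TH2B. Among the 20 H2A and H2B genes in pairs, 16 were reduced, and among the 12 outside pairs 5 were, namely H2AC21, H2AC4, H2BC3, H2BC5 and H2BC6. A gene outside pairs here is one without a partner among the members. A partner missing from the set would move it into the pairs, so these counts depend on the annotation.

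Sequence between the paired starts measured 169 to 250 bases. CCAAT stood in all 10, in 3 to 6 copies, as in the sequences printed above, where H2BC12/H2AC12 has 6. TATAAA stood in 6 of the 8 reduced pairs and 1 of the 2 others, and ATTTGCAT likewise in 6 of 8 and 1 of 2. H2AC1/H2BC1, without a reduced region, carries all 3 of these motifs, and H2AC25/H2BC26 carries CCAAT alone. With only 2 pairs that were not reduced, whether these letters differ between reduced and other pairs could not be judged.

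The same motifs were counted from 250 bases before to 50 bases after the TSS, on both strands, at each member. CCAAT was present at 55 of 64 (85.9%; 35.8% of all protein-coding promoters), TATAAA at 43 (67.2%; 10.9%) and ATTTGCAT at 24 (37.5%; 1.66%). CACGTG, the E-box bound by MAX with MYC or MAD, was in 0 of 64 of these windows, beside 8.32% of all promoters. ATTTGCAT was in 16 of 30 reduced and 8 of 34 other members. It was mostly a feature of H2A (12 of 16) and H2B (11 of 16), and within these families 15 of 23 genes with it and 6 of 9 without it were reduced. TATAAA was in 22 of 30 reduced and 21 of 34 other members. A match is a description of the letters in this window and not of binding.

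The histone stem-loop motif (a stem of 6 base pairs around a loop of 4 bases) was searched within 150 bases after the stop codon and found at 61 of 64 members (95.3%), beside 66 of all protein-coding genes (0.327%). The 5 carriers outside the set were H2AX, H3-4, H3-7 and the older-symbol genes HIST1H4B and HIST2H2AA3, all of them histone genes. It was not found at H3C6, H2BC10 and H4C13, none of which was reduced. For 28 of the 30 reduced members the stem-loop itself lay in the region. The 3 most frequent forms are given as DNA of the coding strand of GRCh37, with the paired stem in capitals and the loop in lower case, to show how the H4 form differs from the others.
Most frequent form: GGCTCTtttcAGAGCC
Second form: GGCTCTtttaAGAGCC
H4 form: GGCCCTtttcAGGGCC
The first was carried by 38 genes, none of them H4, of which 19 were reduced. The second was carried by 8 genes, none of them H4, of which 5 were reduced. The H4 form was carried by 8 genes, all H4, of which 1 was reduced, and a further H4 form with the loop tttt was carried by 4, of which 2 were reduced.

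Base composition within 1 kb on each side of the TSS was also read. Members had a median GC content of 49.0%, with 50.7% for reduced and 47.7% for other members, beside 55.0% for all protein-coding genes and 54.5% for those reduced at 2.5 μM. The ratio of observed to expected CpG had a median of 0.793 at reduced and 0.754 at other members. It was 0.612 at all protein-coding genes and 0.737 at those reduced at 2.5 μM. Members on chromosome 1 were richer in GC (54.4%) than those on chromosome 6 (48.3%). Its part in the result was not tested.

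Near-identical copies limit how far single genes can be told apart. Reads of 100 bases that match several places could be placed at any 1 of them in the authors' alignment, unless they matched more than 20. No 100-base sequence within 1 kb of a member TSS had that many exact copies. That alignment also allowed mismatches, and places that differ by a few bases were not counted here. Within 1 kb of the TSS, over 10% of the 100-base sequences also occurred elsewhere in the genome at 13 members, of which 6 were reduced. All positions were repeated at H4C14, H4C15, H3C14 and H3C15, and 87.4% at H2AC19, 42.0% at H3C13 and 37.8% at H2BC18. The regions at H4C14 and H4C15 therefore cannot be told apart from 1 region read at both copies. Repeats were more frequent on chromosome 1 (7 of 12 members) than on chromosome 6 (6 of 51). Among the 51 members with at most 10% repeated sequence, 24 were reduced (47.1%), much as in the whole set.

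Other genes of the histone supply pathway were read from lists. No gene of these lists was reduced at 1 μM, where 0.496% of all protein-coding genes were, so none would be likely in lists this small. Of 12 histone variant genes, which are expressed outside S phase as well, 3 were reduced at 2.5 μM (25%). Those were H2AZ1 and H2AZ2, both encoding H2A.Z, in regions of 7899 and 4749 bp, and H3-3A, encoding H3.3, in a region of 5399 bp. H3-3B, the second H3.3 gene, lay 4.08 kb from the nearest region. Of 14 genes for histone gene transcription and 3′ end processing, 2 were reduced (14.3%). They were NPAT, the coactivator of histone genes, with a region of 5549 bp, and HINFP, an activator of H4 genes, with one of 3199 bp. SLBP, which binds the stem-loop, lay 527 kb away. Of 13 histone chaperone genes, 4 were reduced (30.8%), namely ASF1A (region of 5199 bp), a chaperone of H3 and H4, ATRX (3849 bp), which deposits H3.3 together with DAXX, and NAP1L1 (5849 bp) and NAP1L4 (5699 bp), of the nucleosome assembly protein family. These shares rest on small lists and are to be read beside the 9.5% of all protein-coding genes.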

How the data were processed

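The deposited files are lists of regions in BED format that hold a chromosome, start and end and no measured value. According to the methods, the authors checked the 100-nt reads (FastQC 0.10.0), aligned them to hg19 (Bowtie 1.0.0) and called regions that differed from the untreated library (SICER-df). The list names carry a stricter FDR threshold than the methods. For reduced promoters, the results of the paper also state a stricter threshold than its methods. Handling of duplicate reads is not given in the sources used here. The lists give no depth, and the study's summary of ChIP quality was not used here.

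Genes came from GENCODE release 44 on GRCh37. Regions, printed from 1, were placed on TSS within 3 kb, and the placement was tested on simulated regions. Promoter letters and 100-base repeats were read from GRCh37. Of 69 RefSeq symbols that fit the rule, 64 were members, and 2 of the other 5 were listed under older symbols (see the alternatives). The last 3, H2BC7, H2BC8 and H4C6, were not analysed here. Counts by family, chromosome, run and pair therefore leave them out. Members and gene lists were chosen with earlier results of these data known. Members on chromosomes 1 and 12, those of the fullest, longest and shortest regions, those nearest to 3 kb and listed genes near a region were to be named, and the others are named by family or run. No test across conditions was run. Python 3.11.15 was used, with scipy 1.17.1 for intervals, numba 0.67.0 for repeats, matplotlib 3.10.9 for figures, pandas 2.3.3 and numpy 2.4.6.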

Additional observations from a re-analysis of the deposited data

How the results depend on the processing

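At 1 μM the number of reduced histone genes was 0 under every alternative run. At 2.5 μM it was 30 whether a region had to cover the TSS, lie within 1 kb, lie near the TSS of any transcript or measure at least 1000 bp. With a window of 10 kb it was 38, and the chromosome 1 count moved from 5 to 8 of 12, with H3C14, H2AC19 and H3C15 gained. Restricted to members with at most 10% repeated sequence, chromosome 1 had 3 of 5 reduced genes and chromosome 6 had 21 of 45. Pairs within 500 bp gave the same 80%, and merging regions within 3 kb left 15. Alternatives chosen after seeing the data gave 31 of 66 with HIST1H4B and HIST2H2AA3 added, and 29 with the start codon in place of the gene start, where H2BC6 was lost. Of all 20176 protein-coding genes, 1853 (9.18%) had the TSS covered, 1880 (9.32%) a region within 1 kb and 2068 (10.25%) one within 10 kb. The count was 2178 (10.8%) for any transcript and 1578 (7.82%) for the start codon. A stricter threshold was not run, since no region carries a value. No paired analysis was possible because conditions were sequenced as 1 library each. Counts depend on the unknown depth of each library, and a missing region does not show that H3K4me3 did not change.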
